A study of Homo sapiens with 8 samples.

Results

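Zinc transporter, metallothionein and MTF1 transcripts were examined in SKBR3 cells, an established line from a human breast cancer with an amplified ERBB2 (HER2) gene. The members were all rows of the gene table whose symbol belongs to the SLC39A (ZIP) family, the SLC30A (ZnT) family or the metallothioneins, plus MTF1. This gave 29 of 30434 genes: 14 ZIP genes, 9 ZnT genes, 5 metallothionein genes and MTF1. RNA sequencing compared 4 libraries of control SKBR3 cells, whose genotype is given as WT, with 4 libraries of a stable derivative carrying lentiviral short hairpin RNAs against FOXA1, a pioneer transcription factor of luminal breast cells. The series describes 3 individual hairpins; which hairpin each library carries, and whether the controls received a vector, are not given in the sources used here. All cells were grown in DMEM with serum and antibiotics.

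Zinc is held at very low free concentrations in the cytosol. ZIP proteins move zinc into the cytosol, from outside the cell or from organelles. ZnT proteins move it the other way, out of the cell or into organelles. Metallothioneins are small cysteine-rich proteins that bind zinc and copper, and MTF1 is the zinc-sensing transcription factor that binds metal response elements in front of metallothionein genes and of SLC30A1. In breast cancer, SLC39A6 (LIV-1) is known as an estrogen-responsive gene and SLC39A7 as a gate for zinc release from the endoplasmic reticulum.

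The metallothioneins lie in a cluster on chromosome 16, and their near-identical coding sequences bear on how well their reads can be told apart. The coding sequences of MT2A (chr16:56608199-56609497, + strand, GRCh38) and MT1X (chr16:56682424-56684196, + strand), the 2 metallothioneins with the most counts, are given below without the stop codon, with the cysteine codons in capitals.
MT2A: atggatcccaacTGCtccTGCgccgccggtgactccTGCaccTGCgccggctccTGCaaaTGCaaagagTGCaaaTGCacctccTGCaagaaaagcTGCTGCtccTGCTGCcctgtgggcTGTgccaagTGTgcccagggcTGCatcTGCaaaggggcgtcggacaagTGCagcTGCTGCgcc
MT1X: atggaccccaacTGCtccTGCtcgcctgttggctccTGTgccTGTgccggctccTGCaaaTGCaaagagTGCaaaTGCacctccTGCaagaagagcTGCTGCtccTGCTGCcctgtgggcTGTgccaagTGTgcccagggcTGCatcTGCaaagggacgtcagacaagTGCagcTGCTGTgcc
Each has 61 codons, of which 20 (32.8%) encode cysteine. The pair is identical at 169 of 183 bases (92.3%), and the pairs among the 5 metallothioneins ranged from 88.5% (MT1F with MT1X) to 95.1% (MT1G with MT2A). Over the whole principal transcripts, coding part included, 6.88% of the 31-base stretches of MT2A and 19.3% of those of MT1X also occur in another of the 5.

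The core of the metal response element was searched in RefSeq promoter windows (GRCh38.p14, 250 bases before each transcript start) as TGCACNC or TGCGCNC on both strands. Among 35116 windows of all genes 24.8% held at least 1 match, 6.48% at least 2 and 0.37% at least 4. MT2A had 7 matches and MT1X had 4. The MT1X window up to the annotated start, chr16:56682220-56682423 on the + strand, and a 30-base stretch of the MT2A window, chr16:56608427-56608456 on the + strand, are shown with the matches in capitals. The whole MT2A window, chr16:56608334-56608583, lies inside the MT2A gene span given above. RefSeq and the annotation behind that span place the MT2A start differently.
MT1X: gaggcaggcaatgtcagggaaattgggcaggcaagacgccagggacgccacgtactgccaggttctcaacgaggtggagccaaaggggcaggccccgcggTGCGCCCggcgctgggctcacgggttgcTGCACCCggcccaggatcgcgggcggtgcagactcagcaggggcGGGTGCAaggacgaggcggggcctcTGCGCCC
MT2A: cgggTGCGCCCggcccagTGCGCGCggccg
RefSeq windows were matched for 23 members, which have 31 windows in all because some have several starts. No window was searched for the other members, MT1A, MT1F and MT1G among them, so nothing is known here of their matches. All of these members are named under the data processing below. At least 1 match was found in 11 of the 31 windows, each of a different member: besides MT2A and MT1X, SLC30A2 had 3, and SLC30A1, SLC30A4, SLC30A6, SLC39A1, SLC39A3, SLC39A6, SLC39A8 and SLC39A13 had 1 each. The forkhead sequence TGTTTAC, searched on both strands in the same windows, occurred in the window of SLC30A9 and in 2.98% of all windows. A match is a run of letters and no evidence of binding.

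The control libraries held between 21838121 and 23786684 counts and the knockdown libraries between 19087878 and 23503753. FOXA1 fell from 191.7 ± 1.65 CPM (counts scaled to a library total of 1000000) in control to 3.96 ± 0.340 in knockdown (SD, n = 4 each), or 2.06% of control, a log2 fold change of -5.60 (SE 0.06, edgeR adjusted p = 3.19e-30). Among controls, replicate 3 was the most distant: the chi-square per degree of freedom of its pairs was 4.94 to 6.36, against 2.18 to 2.41 among the other control pairs and 190.0 to 213 across groups. Epithelial markers stayed high in every library (KRT8 averaged 4519 CPM in control and 5619 in knockdown), although the summed luminal list was 18770 to 20910 CPM in control and 12010 to 12920 in knockdown, with ERBB2, KRT7 and KRT19 at least 2-fold lower. The summed fibroblast list, without LUM, was 6.05 to 7.69 CPM in control and 11.3 to 12.8 in knockdown. COL3A1 averaged 0.0222 and 4.32 CPM and PDGFRB 0.41 and 2.83 CPM. COL1A1, the highest of the list in control at 5.38 CPM, was lower in knockdown at 80.4% of control, and DCN had 0 or 1 count in each library. The basal list was 3.25 to 4.23 and 9.10 to 10.4 CPM: TP63 averaged 0.147 and 7.87 CPM, while KRT17 and ACTA2 fell to 14.8% and 5.06% of control. The endothelial list was 20.7 to 22.1 and 19.8 to 22.4 CPM, with CDH5 higher at 125% and VWF lower at 16.2% of control. The leukocyte list, without CD3E and MS4A1, was 4.63 to 5.82 and 0.648 to 1.62 CPM, with PTPRC at 0 to 3 counts in every library. Its 2 tested genes moved in opposite directions: CD68 averaged 4.94 CPM in control and 0.589 in knockdown, and CD14 0.181 and 0.533. The part of these lists in the results below was not tested. In bulk RNA, fewer cells with a transcript and less of it per cell cannot be told apart.

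Of the 29 members, 23 had enough counts to be tested. MT1A, MT1G, SLC30A10, SLC39A2, SLC39A5 and SLC39A12 were not. After FOXA1 knockdown 13 members were lower and 8 higher at an adjusted p under 0.05 (edgeR quasi-likelihood test over all 16430 tested genes), and MTF1 and SLC30A5 did not pass. These counts are read against a table in which most genes changed: 77.1% of tested genes were called, 37.7% lower and 39.4% higher. The share of tested members called was 91.3%. Falls of 2-fold or more were called for 5 members (MT2A, MT1F, SLC39A11, SLC39A13 and SLC30A4), beside 13.4% of all tested genes, and rises of 2-fold or more for 3 (SLC39A8, SLC39A10 and SLC39A4), beside 14.9%. The 4 control and 4 knockdown values did not overlap for 18 of the 23, beside 72.0% of all tested genes. The median log2 fold change was -0.19 over the tested members and 0.02 over all genes, and the median size of the change was 0.69 and 0.51. Without control replicate 3 the counts were 14 lower and 7 higher. Since MT1F entered the test only through its control counts, and SLC30A2 and SLC30A8 with 1 control and 4 knockdown libraries at the minimum, the counts are a description of the members that passed.

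**Figure D1:**
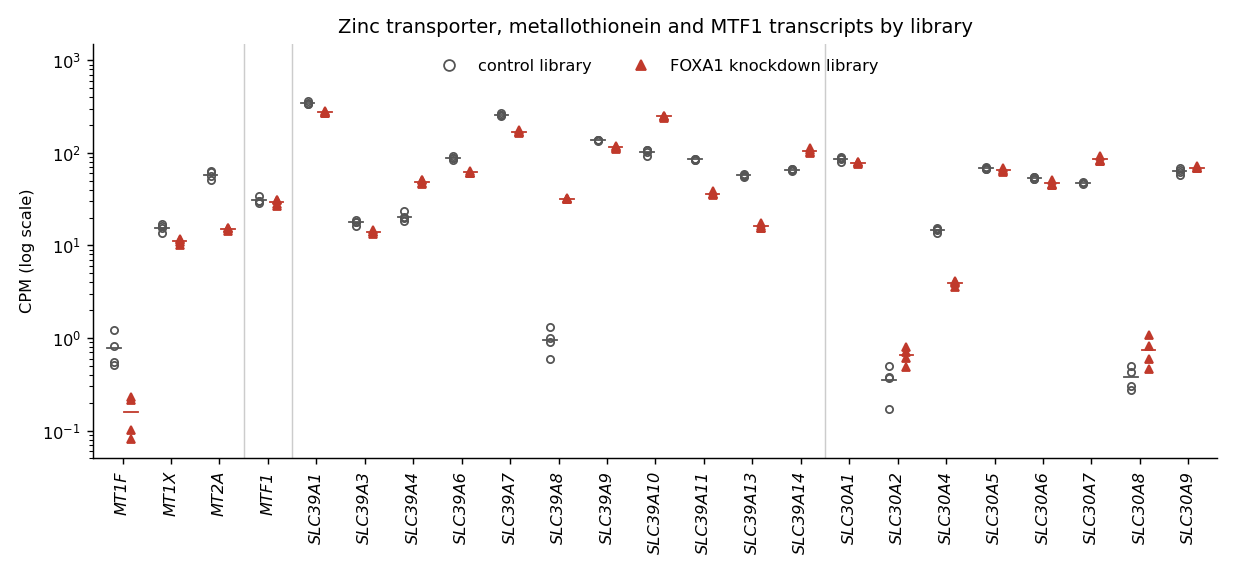
CPM (log axis) of the 23 tested members in each of the 4 control libraries (open circles) and 4 FOXA1 knockdown libraries (red triangles), with horizontal lines at the group means, ordered as metallothioneins, MTF1, ZIP and ZnT genes. SLC39A8 averaged 0.951 CPM in control and 31.9 in knockdown, MT2A and SLC30A4 lay well below their control values, and MTF1 and SLC30A5 overlapped between groups.

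Metallothionein transcripts fell. The CPM of the 5 genes together was 79.4, 72.9, 83.2 and 65.5 in the control libraries and 25.8, 25.3, 27.6 and 27.3 in the knockdown libraries, here and below in the order of the replicate numbers. Every knockdown library lay below every control library. The difference was -1.50 on the log2 scale (SE 0.08), 2.83-fold, with an exact two-sided permutation p of 0.0286, the smallest that 4 against 4 libraries can give. This sum does not depend on how reads of near-identical copies were shared out among the 5 genes.

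MT2A, a widely expressed metallothionein, made up most of that sum. It stood at 61.9, 56.2, 64.3 and 50.8 CPM in control and 14.2, 14.99, 15.4 and 15.5 CPM in knockdown (58.3 ± 6.06 and 15.02 ± 0.588, SD, n = 4). The groups were far apart, and the knockdown level was 25.8% of control (log2 fold change -1.96, SE 0.08, edgeR adjusted p = 4.58e-16). MT1X, further along the same cluster, fell less. It stood at 16.3, 15.3, 17.1 and 13.5 CPM in control and 11.0, 10.1, 11.7 and 11.4 CPM in knockdown, or 71.2% of control (log2 fold change -0.49, SE 0.09, edgeR adjusted p = 3.66e-06). Its fall grew to -0.79 when the median change of its 50 nearest tested genes on the chromosome, 0.30, was taken out. MT2A had the same neighbour median, and its fall likewise grew, to -2.255.

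The ratio of the pair, taken within each library, differed between the groups. MT2A had 3.81, 3.67, 3.77 and 3.77 counts per MT1X count in control (3.76 ± 0.0577, SD, n = 4) and 1.29, 1.49, 1.32 and 1.35 in knockdown (1.36 ± 0.0879, SD, n = 4). MT2A took 77.1% to 78.0% of all metallothionein counts in control libraries and 55.0% to 59.3% in knockdown, and MT1X took 20.5% to 21.0% and 39.9% to 42.7%. The coding sequences printed above are 92.3% identical, so how the authors' counting divided shared reads bears on these shares.

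The remaining metallothioneins were near the limit of detection, where 3 counts correspond to 0.123 to 0.153 CPM. MT1F (chr16:56657694-56660698, + strand) had 12, 18, 26 and 12 counts in control and 5, 2, 2 and 5 in knockdown, with a fitted log2 fold change of -2.26 (SE 0.43, edgeR adjusted p = 1.98e-05). Because it met the count minimum in the 4 control libraries and in 0 knockdown libraries, a gene passing this way had to differ, and its p is no support for the fall. MT1G (chr16:56666731-56668065, - strand) had 14, 10, 11 and 14 counts in control and 0, 0, 0 and 1 in knockdown. It was too low to enter the test and was at least 4.1-fold lower against a floor of 3 counts per knockdown library. MT1A (chr16:56638666-56640087, + strand) had 1, 3, 2 and 1 counts in control and 9, 3, 6 and 4 in knockdown. Its groups overlapped at 3 counts, with an exact two-sided permutation p of 0.0571. At so few counts, a few reads from a near-identical copy would alter each of these values.

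**Figure D2:**
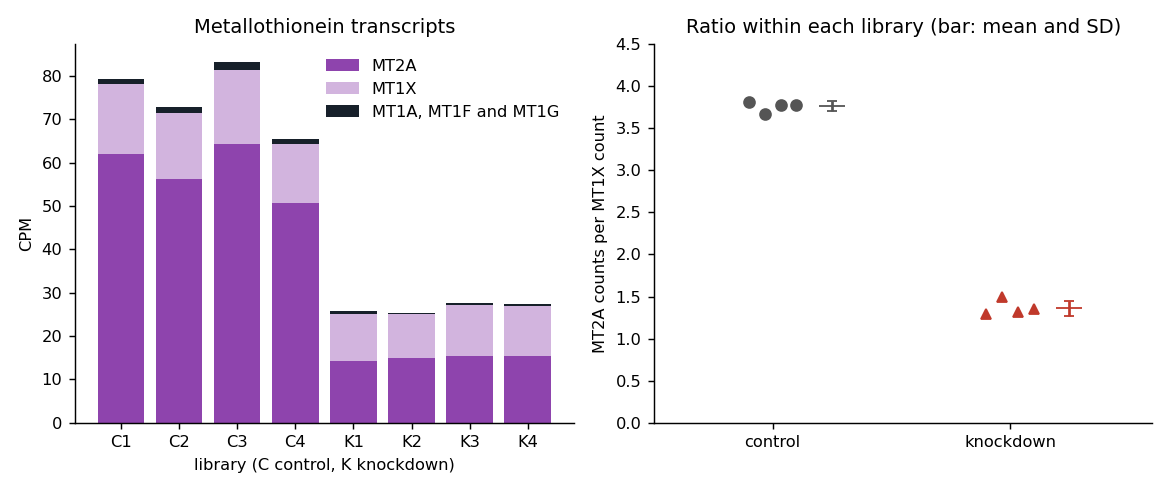
Left, summed metallothionein CPM in each control (C1 to C4) and knockdown (K1 to K4) library, divided into MT2A, MT1X and the other 3 genes. Right, MT2A counts per MT1X count in each library (points) with the group mean and SD (bars): 3.76 ± 0.0577 in control and 1.36 ± 0.0879 in knockdown.

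MTF1 (ENSG00000188786.10, chr1:37809567-37859620, - strand), the transcription factor that induces metallothioneins, showed no difference that passed the test. Its CPM was 28.5, 34.5, 29.9 and 29.9 in control and 26.8, 30.9, 28.1 and 30.8 in knockdown. The groups overlapped (30.7 ± 2.59 and 29.2 ± 2.05, SD, n = 4; log2 fold change -0.07, SE 0.08, edgeR adjusted p = 0.283). With scaling by library size alone the estimate was 0.01, and with the change of its chromosomal neighbours taken out it was -0.30 (adjusted p = 0.000143). SLC30A1, the plasma membrane zinc exporter and the other textbook target of MTF1, is described with the ZnT genes.

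All 11 tested ZIP genes were called, 7 lower and 4 higher, and in all 11 the groups did not overlap. Over all tested genes 77.1% were called and 72.0% did not overlap. Their median log2 fold change was -0.31. Among tested members the largest fold change was that of SLC39A8 (ENSG00000138821.13, chr4:102251041-102431258, - strand), a carrier of zinc, manganese and cadmium at the plasma membrane. It had 13, 29, 19 and 23 counts in control and 769, 766, 625 and 688 in knockdown. In CPM these are 0.595, 1.32, 0.902 and 0.991 in control and 32.7, 31.4, 31.8 and 31.8 in knockdown. All control libraries held a trace, and all knockdown libraries a similar, moderate level. The rise was 33.3-fold (log2 fold change 5.06, SE 0.23, edgeR adjusted p = 2.12e-23), while its 50 nearest tested genes had a median of -0.24.

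SLC39A10 and SLC39A4, both plasma membrane importers, more than doubled in level. SLC39A10 (ENSG00000196950.14, chr2:195575977-195737702, + strand), known to form a complex with SLC39A6, stood at 107, 102, 92.0 and 107 CPM in control and 253, 253, 246 and 240.0 CPM in knockdown. No library overlapped with the other group, and the rise was 2.44-fold (log2 fold change 1.29, SE 0.05, edgeR adjusted p = 2.36e-19). SLC39A4 (ENSG00000147804.10, chr8:144409742-144416895, - strand), the intestinal zinc importer mutated in acrodermatitis enteropathica, stood at 20.1, 18.2, 23.4 and 19.95 CPM in control and 46.0, 47.5, 50.8 and 50.3 CPM in knockdown. Here too the groups were separate, with a 2.39-fold rise (log2 fold change 1.25, SE 0.08, edgeR adjusted p = 3.34e-15). SLC39A14 (ENSG00000104635.14, chr8:22367249-22434129, + strand), the closest relative of SLC39A8 and a carrier of zinc, iron and manganese, rose less. Its CPM was 64.2, 66.5, 65.3 and 66.5 in control and 102, 108, 101 and 113 in knockdown (1.61-fold, log2 fold change 0.69, SE 0.04, edgeR adjusted p = 9.76e-14). Its 50 nearest genes had a median of 0.30, and with that taken out the estimate for SLC39A14 was 0.39.

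SLC39A13 and SLC39A11, ZIP proteins of intracellular membranes including the Golgi, had the largest falls of the family. SLC39A13 (ENSG00000165915.14, chr11:47407132-47416501, + strand), mutated in a form of Ehlers-Danlos syndrome, stood at 58.2, 54.7, 59.4 and 55.6 CPM in control and 16.3, 15.4, 15.3 and 17.3 CPM in knockdown. The knockdown level was 28.2% of control in well separated groups (log2 fold change -1.82, SE 0.05, edgeR adjusted p = 1.79e-20). Its 50 nearest genes had a median of -0.53, and the estimate beyond it was -1.30. SLC39A11 (ENSG00000133195.11, chr17:72645949-73092712, - strand) stood at 84.1, 86.9, 85.2 and 84.6 CPM in control and 35.9, 35.9, 38.3 and 35.4 CPM in knockdown. Values within each group were close together, and the knockdown level was 42.7% of control (log2 fold change -1.23, SE 0.03, edgeR adjusted p = 6.8e-19).

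The 5 other ZIP genes fell by less than 2-fold. SLC39A7 (ENSG00000112473.18, chr6:33200445-33204439, + strand), which releases zinc from the endoplasmic reticulum, stood at 255, 251, 268 and 254 CPM in control and 175, 169, 163 and 168 CPM in knockdown, or 65.7% of control (log2 fold change -0.61, SE 0.03, edgeR adjusted p = 3.06e-14). SLC39A6 (ENSG00000141424.13, chr18:36108532-36129385, - strand), the estrogen-responsive importer LIV-1, stood at 92.3, 88.0, 84.0 and 87.9 CPM in control and 63.3, 60.8, 60.9 and 60.7 CPM in knockdown. It ended at 69.8% of control (log2 fold change -0.52, SE 0.03, edgeR adjusted p = 1.75e-11), so its level moved opposite to that of its partner SLC39A10. SLC39A1 (ENSG00000143570.19, chr1:153959099-153968184, - strand), a widely expressed plasma membrane importer, stood at 342, 333, 363 and 335 CPM in control and 278, 272, 272 and 284 CPM in knockdown (log2 fold change -0.31, SE 0.03, edgeR adjusted p = 9.47e-09). SLC39A3 (ENSG00000141873.11, chr19:2732204-2740152, - strand), its close relative, ran from 16.2 to 18.96 CPM in control and from 13.3 to 14.6 in knockdown (log2 fold change -0.36, SE 0.06, edgeR adjusted p = 2.65e-05). With the change of their neighbours taken out, SLC39A1 stood at -0.17 and SLC39A3 at -0.20.

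SLC39A9, a ZIP protein of the Golgi and the plasma membrane, was the ZIP gene whose direction depended on its neighbourhood. SLC39A9 (ENSG00000029364.12, chr14:69398015-69462388, + strand) stood at 137, 139, 138 and 133 CPM in control and 114, 116, 111 and 118 CPM in knockdown (log2 fold change -0.25, SE 0.02, edgeR adjusted p = 5.77e-07). Its 50 nearest tested genes had a lower median, -0.38, and with that taken out the estimate for SLC39A9 turned to 0.12 (adjusted p = 0.00272). If reads were counted without regard to strand, those of SLC39A9, SLC39A1 and SLC39A7 could include some from the genes they overlap on the opposite strand, by 373 bases for ERH, 280 for CREB3L4 and 244 for RXRB. SLC39A2, SLC39A5 and SLC39A12 had between 0 and 2 counts in every library of either group.

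**Figure D3:**
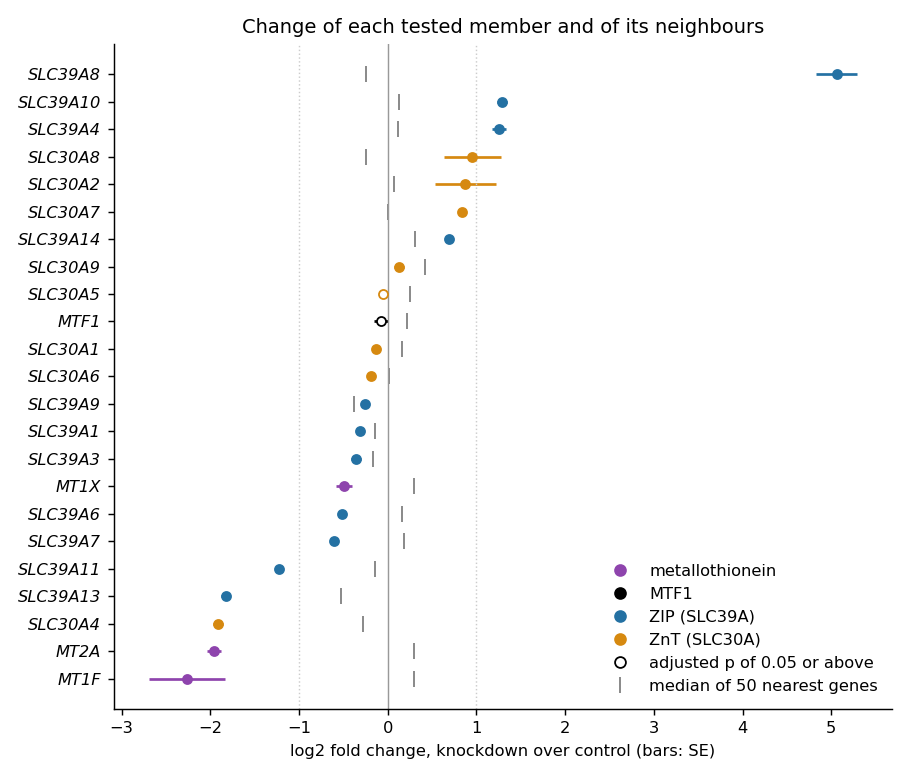
Fitted log2 fold change of knockdown over control for the 23 tested members (points, coloured by family; bars show the SE) with the median of the 50 nearest other tested genes (grey ticks) and dotted lines at 2-fold. SLC39A8 lies at 5.06 with its neighbours at -0.24, while the ticks of SLC39A9 and SLC30A9 lie beyond their own points.

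Among ZnT genes, 3 of 8 tested were lower, 4 higher and 1 not called, with a median log2 fold change of 0.03 (87.5% called, beside 77.1% of all tested genes). Of the 4 higher, SLC30A2 and SLC30A8 met the count minimum in 1 control and 4 knockdown libraries each. They entered the test through their knockdown counts, so this share only describes the genes that passed. In 4 of the 8 (SLC30A4, SLC30A6, SLC30A7 and SLC30A9) the groups did not overlap, beside 72.0% of all tested genes. SLC30A4 (ENSG00000104154.7, chr15:45479611-45522807, - strand), which loads zinc into endosomes and secretory vesicles, was the ZnT gene with a called change of 2-fold or more. It stood at 13.6, 15.1, 14.6 and 15.4 CPM in control and 4.12, 3.56, 3.92 and 3.98 CPM in knockdown. The groups were clearly apart, and the level in knockdown was 26.5% of control (log2 fold change -1.91, SE 0.06, edgeR adjusted p = 2.25e-16).

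SLC30A5, SLC30A6 and SLC30A7 are the Golgi transporters that supply zinc to secreted enzymes, with SLC30A5 and SLC30A6 forming a heterodimer and SLC30A7 acting as a homodimer. SLC30A7 (ENSG00000162695.12, chr1:100896076-100981753, + strand) stood at 48.4, 47.8, 46.5 and 47.6 CPM in control and 81.8, 92.0, 84.5 and 81.3 CPM in knockdown. It rose 1.78-fold in separate groups (log2 fold change 0.84, SE 0.04, edgeR adjusted p = 8.03e-15). SLC30A6 (ENSG00000152683.14, chr2:32165841-32224379, + strand) stood at 54.4, 54.8, 52.8 and 51.8 CPM in control and 45.1, 50.3, 46.2 and 45.3 CPM in knockdown, a small fall (log2 fold change -0.19, SE 0.04, edgeR adjusted p = 0.000599) that was -0.11 with scaling by library size alone (adjusted p = 0.0418). SLC30A5 (ENSG00000145740.19, chr5:69093646-69131069, + strand) stood at 67.2, 69.5, 66.8 and 68.8 CPM in control and 65.5, 62.8, 68.9 and 64.4 CPM in knockdown. These values overlapped, and the test was not passed (log2 fold change -0.06, SE 0.03, edgeR adjusted p = 0.203), although with the change of its neighbours taken out the estimate was -0.30 (adjusted p = 3.89e-07).

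SLC30A1 and SLC30A9 showed small differences that depended on the scaling or on single libraries. SLC30A1 (ENSG00000170385.10, chr1:211571568-211578742, - strand) stood at 87.3, 89.4, 79.6 and 86.5 CPM in control and 77.9, 80.2, 79.1 and 75.3 CPM in knockdown. The lowest control value, in replicate 3, fell inside the knockdown range, and the call (log2 fold change -0.13, SE 0.04, edgeR adjusted p = 0.00582; exact two-sided permutation p = 0.0571) was lost with upper-quartile scaling (-0.07, adjusted p = 0.11) and with library size alone (-0.05, adjusted p = 0.293). Taking out the change of its neighbours gave -0.29. SLC30A9 (ENSG00000014824.14, chr4:41990472-42090457, + strand), a mitochondrial zinc transporter, stood at 65.6, 61.8, 57.5 and 67.8 CPM in control and 68.0, 71.6, 68.3 and 68.0 CPM in knockdown (log2 fold change 0.13, SE 0.06, edgeR adjusted p = 0.0182). The call was lost without control replicate 3 (0.08, adjusted p = 0.0776) and without knockdown replicate 2 (0.11, adjusted p = 0.0625). Library size alone as scaling gave 0.21. Its 50 nearest genes had a higher median, 0.42, and with that taken out the estimate for SLC30A9 turned to -0.29 (adjusted p = 6.18e-06).

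SLC30A2, the zinc transporter of mammary secretory vesicles, and SLC30A8, that of insulin granules, were barely detected. SLC30A2 (chr1:26037252-26046133, - strand) had 4 to 11 counts per control library and 12 to 19 per knockdown library (log2 fold change 0.88, SE 0.34, edgeR adjusted p = 0.0182). SLC30A8 (chr8:116950273-117176714, + strand) had 6 to 11 and 10 to 21 counts (log2 fold change 0.95, SE 0.32, edgeR adjusted p = 0.0103). DESeq2 called neither (adjusted p = 0.121 and 0.0783). The call for SLC30A2 was also lost without control replicate 4 (adjusted p = 0.0909) or knockdown replicate 1 (0.067), and that for SLC30A8 without knockdown replicate 3 (0.0591). SLC30A10, a manganese exporter, had 1 to 12 counts in control and 5 to 10 in knockdown and was not tested.

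Divided by the length of each gene's principal transcript, levels can be set beside each other within a family. The summed ZIP level was 407, 399, 418 and 402 CPM per kb in control and 355, 350.0, 346 and 355 in knockdown (406 ± 8.64 and 351 ± 4.35, SD, n = 4), so every knockdown library lay below every control library. SLC39A1 and SLC39A7 were the highest in both groups on this scale. SLC39A1 averaged 126 CPM per kb in control and 102 in knockdown, and SLC39A7 107 and 70.03. In shares of the ZIP sum, SLC39A7 went from 26.2% to 19.9%. SLC39A10 went from 4.61% to 13.0%; it was below SLC39A9, SLC39A11, SLC39A13 and SLC39A6 in control and above all of them in knockdown. SLC39A4 went from 2.31% to 6.37%, SLC39A14 from 3.48% to 6.48%, and SLC39A8 from 0.0725% to 2.81%. SLC39A11 went from 7.66% to 3.78% and SLC39A13 from 6.12% to 2.00%, which left SLC39A13 the lowest of the 11 tested. Neighbours in this order whose libraries overlapped were SLC39A13 and SLC39A6 in control, and SLC39A14 and SLC39A4, and SLC39A8 and SLC39A3, in knockdown.

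The summed ZnT level was 60.4 ± 1.78 CPM per kb in control and 61.6 ± 1.54 in knockdown (SD, n = 4), with overlapping libraries. SLC30A7 went from 9.98% to 17.4% of it, and SLC30A4 from 3.40% to 0.886%. SLC30A5 (25.9% and 24.4%) and SLC30A1 (25.9% and 23.2%) were the highest in both groups, SLC30A9 averaged 10.2 and 11.1 CPM per kb, and SLC30A6 took 17.4% and 14.9%. These levels assume that the principal transcript of each gene is the one expressed.

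**Figure D4:**
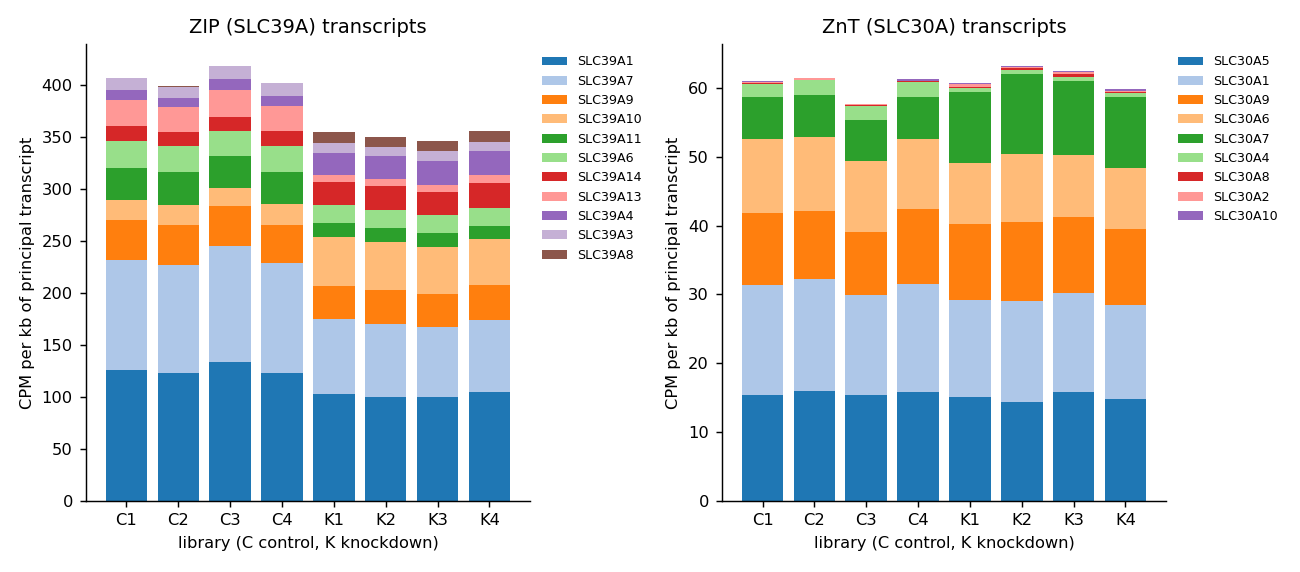
Stacked levels (CPM per kb of principal transcript) of the ZIP genes (left) and ZnT genes (right) in each control (C1 to C4) and knockdown (K1 to K4) library. The ZIP sum averaged 406 in control and 351 in knockdown with a larger part for SLC39A10, and the ZnT sums (60.4 and 61.6) overlapped with a larger part for SLC30A7.

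Pairs of related transporters were set against each other within each library; the pairs were chosen with the values known and are given without a test. SLC39A10 had 1.15 ± 0.0481 counts per SLC39A6 count in control and 4.04 ± 0.0898 in knockdown (SD, n = 4). SLC39A8 had 0.0145 ± 0.00432 counts per count of its relative SLC39A14 in control and 0.303 ± 0.0190 in knockdown. For SLC30A7 the ratio to SLC30A5 was 0.699 ± 0.0143 and 1.30 ± 0.111. None of these 3 ratios overlapped between groups. Of the heterodimer partners, SLC30A5 had 1.27 ± 0.0393 counts per SLC30A6 count in control and 1.40 ± 0.108 in knockdown, with overlapping libraries.

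Other genes of metal handling were counted from lists of zinc, copper and iron genes. Of 28 listed genes 23 were tested, of which 9 were lower, 9 higher and 5 not called (78.3% called, against 77.1% of all tested genes), with a median log2 fold change of -0.04. Copper transporters held several of the largest changes. SLC31A1, the main copper importer, stood at 226, 241, 237 and 231 CPM in control and 78.2, 80.6, 77.9 and 85.0 CPM in knockdown (log2 fold change -1.54, SE 0.04, edgeR adjusted p = 5.26e-22). ATP7B, a copper-exporting ATPase, stood at 10.8, 11.2, 10.6 and 11.2 CPM in control and 78.1, 81.0, 80.1 and 78.8 CPM in knockdown, a 7.26-fold rise (log2 fold change 2.86, SE 0.02, edgeR adjusted p = 3.92e-25). Importer and exporter thus moved in opposite directions with no overlap of groups, while for ATP7A, the related exporter, the log2 fold change was -0.04 and not called (edgeR adjusted p = 0.608). SLC31A2, a relative of SLC31A1, stood at 42.9, 45.3, 44.0 and 42.4 CPM in control and 2.98, 3.15, 2.45 and 3.29 CPM in knockdown (log2 fold change -3.87, SE 0.10, edgeR adjusted p = 2.47e-24). FKBP15 overlaps 63.1% of its exons on the opposite strand.

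Outside copper, GPR39, a receptor that senses extracellular zinc, stood at 18.7, 16.9, 18.1 and 18.96 CPM in control and 1.06, 0.615, 0.560 and 1.02 CPM in knockdown (log2 fold change -4.46, SE 0.23, edgeR adjusted p = 1.22e-20). LYPD1, which overlaps its exons by 1180 bases on the opposite strand, averaged 4.25 counts per library. GPR39 was the called gene among the 3 tested of the other zinc genes; MCOLN1 and TRPM7 did not pass. Of 12 tested iron genes 4 were lower, 6 higher and 2 not called (83.3% called, beside 77.1% of all tested genes). ACO1, the cytosolic aconitase that doubles as an iron-responsive RNA-binding protein, stood at 1.42, 1.59, 1.66 and 1.25 CPM in control and 13.6, 13.8, 13.2 and 15.6 CPM in knockdown (9.49-fold, log2 fold change 3.25, SE 0.10, edgeR adjusted p = 5.45e-19). FTL, the ferritin light chain, stood at 50.5, 49.5, 55.4 and 48.2 CPM in control and 103, 101, 107 and 106 CPM in knockdown (2.05-fold, log2 fold change 1.03, SE 0.05, edgeR adjusted p = 6.98e-17). Its many processed pseudogenes make its count uncertain. FTH1, the ferritin heavy chain, averaged 332 CPM in both groups. The median change of the 50 nearest tested genes was 0.34 for GPR39, -0.55 for ACO1 and 0.33 for FTL.

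**Figure D5:**
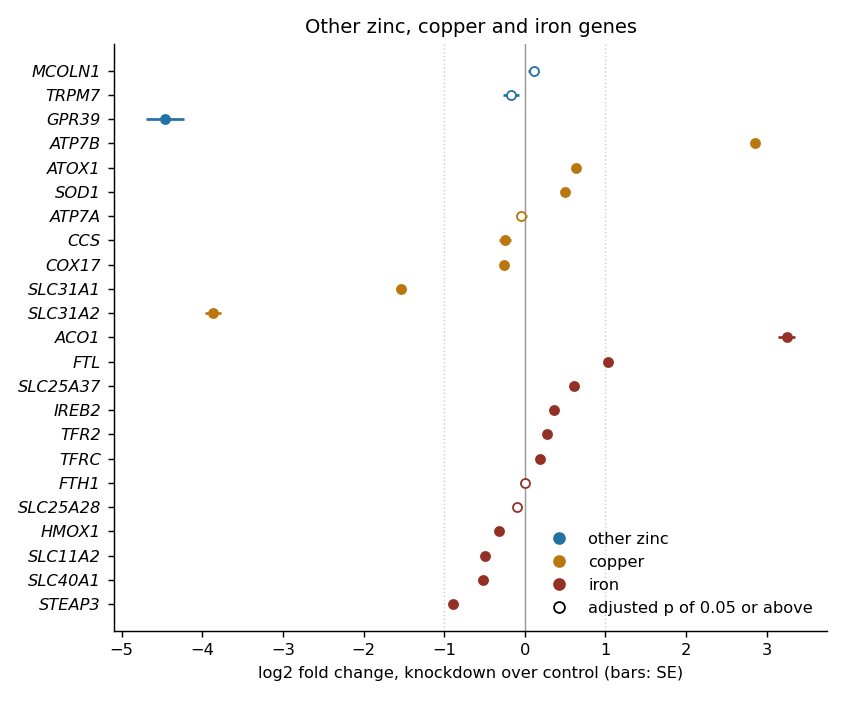
Fitted log2 fold change of knockdown over control (points; bars show the SE) for the 23 tested genes of the other zinc, copper and iron lists, with open points for an adjusted p of 0.05 or above and dotted lines at 2-fold. ATP7B (2.86) and ACO1 (3.25) lie to the right, and GPR39 (-4.46), SLC31A2 (-3.87) and SLC31A1 (-1.54) to the left.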

How the data were processed

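RNA from 4 control and 4 FOXA1 knockdown samples of SKBR3 was extracted with Trizol and sequenced as paired ends on a NextSeq instrument, per the labels' protocols. The authors deposited whole-number raw counts per gene, with no other normalization; the submitters' processing notes name FastQC, Salmon 1.9, DESeq2 and hg38 without giving their roles, so the counts may be rounded estimates, and neither the annotation release nor the strand setting is given in the sources used here. Every row had at least 2 counts in total. Groups and replicate numbers were taken from the sample titles. The labels do not say that replicates were separate cultures, so p-values measure the spread between these samples, which may be technical. The replicate numbers were not used to pair samples.

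Genes were kept by filterByExpr (minimum count 10, minimum total 15), scaled by TMM and tested with the robust quasi-likelihood test of edgeR 4.0.16 in R 4.3.3 over the whole table, with Benjamini-Hochberg adjustment and a threshold of 0.05. CPM are counts per 1000000 of the TMM-scaled library total. Standard errors come from log2 CPM with 0.5 added to each count, and fitted fold changes use a prior count of 0.125. Single values were also tested by exact permutation over 70 divisions. A floor of 3 counts for an undetected gene corresponds to 0.123 to 0.153 CPM and covers counting error only; the biological coefficient of variation was 4.56%. Positions and transcript lengths come from GENCODE 29 (GRCh38), which held 96.5% of the gene identifiers. Promoter windows come from RefSeq (GRCh38.p14), in which 3 members (MT1A, MT1F and MT1G) were not matched. The 3 members on chromosome 8 (SLC39A4, SLC39A14 and SLC30A8) were left out of the promoter search. The edgeR test was tried on simulated counts of 16430 genes. Among changed genes averaging at least 50 counts it recovered 90.3% of log2 changes of 0.5 and 100.0% of those of 1.0. Unchanged genes made up 6.71% of the 164 calls. In the data 77.1% of tested genes were called, so the simulation does not show how the test behaves where most genes change.

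The members, lists and ratios were chosen with earlier results of these data known. Every member is named; values in each sample are given for members called at 2-fold or more, the metallothioneins, MTF1 and members averaging at least 20 CPM. MCOLN1, TRPM7, ATP7A and FTH1 were named after their values were seen. Alternatives were other scalings and filters, DESeq2 1.42.0, limma 3.58.1 (voom), no robust estimation, a replicate block, an adjusted p of 0.01, subtraction of the median change of the 50 nearest tested genes that are not members, and leaving out each library. Figures used Python 3.11.15 and matplotlib 3.10.9.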

Additional observations from a re-analysis of the deposited data

Results flagged for a closer look

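SLC39A6 in knockdown replicate 1, at 63.3 CPM, lay apart from the other knockdown libraries (60.7 to 60.9 CPM), with a gap of 0.942 of the whole range. SLC30A9 in knockdown replicate 2, at 71.6 CPM, lay apart from the others (68.0 to 68.3 CPM), with a gap of 0.896 of the range, and the call for SLC30A9 was lost without that library (log2 fold change 0.11, edgeR adjusted p = 0.0625). Both gaps exceed the 95% critical value of Dixon's test for 4 values. Chance alone flags about 1 in 20 groups, and 48 groups were examined.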

How the results depend on the processing

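The number of members called lower ranged from 12 to 15 over the alternatives, and those lower by 2-fold or more from 4 to 6, higher by 2-fold or more from 3 to 4. MT1G entered the 2-fold falls in some settings that tested it. Members called higher ranged from 5 to 9: the number was 5 at an adjusted p under 0.01, where SLC30A2, SLC30A8 and SLC30A9 were lost. With the change of the 50 nearest genes taken out, SLC30A9 turned to -0.29 and SLC39A9 to 0.12; the cause was not tested. Leaving out each library gave 13 to 14 members lower, 7 to 8 higher, 5 to 6 lower and 3 to 4 higher by 2-fold or more, a metallothionein total of -1.57 to -1.45 and a FOXA1 change of -5.64 to -5.55. All genes called ranged from 10279 (mean of at least 50 counts) to 15028 (no filter), and other metal genes called from 18 to 20. Another scaling moved the median of all genes by at most 0.08. With a replicate block 12453 genes and the same numbers of members, 13 lower and 8 higher, were called; the metallothionein total stayed at -1.50 with p = 0.125, the smallest exact p that 4 pairs allow. Deviations of samples with the same replicate number correlated at 0.09, 0.17, -0.04 and 0.07. Those of samples with different numbers correlated at -0.119 to 0.074. These values do not settle whether the numbers pair the samples, and the main test did not pair them. Depth limited MT1A, MT1F, MT1G, SLC30A2, SLC30A8 and SLC30A10.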
